A study of Mus musculus with 9 samples.

Results

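The 41 genes described here take part in fatty acid oxidation and ketogenesis in mouse liver. They were chosen by gene symbol, as the rows of the deposited table that carry the name of a member, and all 41 of 41 names were found among 16755 genes. The rule itself used no measured value, but the members were chosen with earlier results of these data known. Of the members, 40 act in fatty acid transport, oxidation, hydrolysis or its control, and ketone body metabolism is held by Bdh1 alone.

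RNA was sequenced from 9 livers in 3 groups of 3 male C57BL/6 mice, and all of them carried Scd2 with the third exon flanked by loxP sites. Scd2 codes for a stearoyl-CoA desaturase, which makes monounsaturated fatty acids. Mice of the Scd2f/f TAL group had received diethyl nitrosamine (DEN), a liver carcinogen, at 10 mg/kg when 2 weeks old, and a Western diet with alcohol (WAD) from 6 weeks of age, for 4 months by the labels and for longer by the study's text. TAL stands for tumor-adjacent liver, which is the study's name for the tissue, and the labels call it liver. Mice of the Scd2f/f;CC TAL group had the same treatment and also carried Cre recombinase under the Col1a1 promoter, which is active in hepatic stellate cells and portal fibroblasts. The Scd2f/f TAL group is called Cre-free TAL from here on, and the Scd2f/f;CC TAL group CC TAL. Mice of the Scd2f/f control liver group received neither DEN nor WAD, and the sources used here give no diet for them and no age of their own beyond a range for all mice of the study. The carcinogen, the diet and possibly age therefore differ together between treated and control groups and cannot be told apart.

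Fatty acids reach the mitochondrial matrix as carnitine esters and are shortened there by repeated rounds of dehydrogenation, hydration, dehydrogenation and thiolysis. Very long, branched and dicarboxylic acids are shortened in peroxisomes, and the dicarboxylic acids arise by omega hydroxylation in microsomes. In liver, much of the acetyl-CoA from these rounds can leave as ketone bodies. The nuclear receptor PPARα, which is bound by fatty acids, is known to raise transcription of many of these genes in hepatocytes, and Cyp4a10, Cyp4a14, Vnn1, Acot1, Ehhadh and Acaa1b are textbook examples of its targets.

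The values are the authors' means of normalized counts per group. As no values per mouse were analysed, the spread between mice and the depth of each library are unknown, no standard deviation is given and no difference was tested. A gene was called higher or lower when the ratio of 2 group means was at least 1.5, which is 0.585 on the log2 scale, and 11784 genes with a mean of at least 1 over the 3 groups were counted. All 41 members passed this minimum. Over the table, the group means summed to 658322 in Cre-free TAL, 739723 in CC TAL and 820581 in control liver. Scd2, the targeted gene, had a mean of 6.47 in Cre-free TAL, 1.87 in CC TAL and 2.46 in control liver. The hepatocyte marker Alb stood at 21300 in control liver, 20900 in Cre-free TAL and 22700 in CC TAL, so this marker was present in each group. Other hepatocyte markers are described below. In whole tissue, fewer cells of a type and less RNA per cell cannot be told apart.

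PPARα pairs with RXR on a direct repeat of the hexamer AGGTCA with 1 base between the repeats. RefSeq promoter windows on GRCm38.p6, from 250 bases before to 50 bases after the start site, were matched by symbol to 32 of the 41 members, with 36 windows in all. Both strands were searched, and mismatches were counted over the 12 bases of the repeats. The exact hexamer, which is also part of the repeat, was found in 19.4% of member windows and in 16.3% of all 32851 windows. No member window held the repeat with at most 1 mismatch, against 0.554% of all windows. A match with at most 2 mismatches was found in 11.1% of member windows, those of Acot4, Creb3l3, Etfa and Slc25a20, and in 3.86% of all windows. The nearest matches of these 4 members are shown first, and those of Acot2, Acot1 and Aldh3a2 follow because these had the highest ratios of Cre-free TAL to control liver among members with a window. Each sequence is written 5′ to 3′ on the strand of its gene, and capitals mark the best match to the repeat on either strand.
Acot4, chr12:84038358-84038386, plus strand: ccgaagcaTGACCTTTGGCCGgtctgtgc
Creb3l3, chr10:81092780-81092808, minus strand: ctgtaagtAGGGGAGAGGTCAcacagacc
Etfa, chr9:55512300-55512328, minus strand: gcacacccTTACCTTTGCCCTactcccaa
Slc25a20, chr9:108662134-108662162, plus strand: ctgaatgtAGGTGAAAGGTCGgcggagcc
Acot2, chr12:83987795-83987823, plus strand: gctcagcaAGCACACAGCTCAgtctaagg
Acot1, chr12:84009401-84009429, plus strand: ggaggtgtCTGTCTGAGGCCAaccaatgg
Aldh3a2, chr11:61267227-61267255, minus strand: ccgcggctAGATTAGAGGTAAggggcggg
The centre of the match lay 203 bases before the start site in Creb3l3, 71 in Etfa and 7 in Acot4, and after the start site in Slc25a20. Acot2 and Aldh3a2 had matches with 3 mismatches, as close as those in 24.6% of all windows, and Acot1 had 4, a level reached by 79.8% of all windows. The members Cyp4a14, Cyp4a10 and Vnn1, with the highest ratios of Cre-free TAL to control liver, were not among the 32 searched, and matches were not compared with ratios. A match is a description of letters and not a bound site, and sites outside the windows were not searched.

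Levels of different genes were compared per kilobase of exon, with the exons of all annotated transcripts of a gene merged. The merged length was 4414 bases in Acaa1a and 1962 in Acaa1b, whose coding sequences were both 1272 bases long. Orders by this measure therefore also depend on how many exons are annotated. In control liver the highest members were Acaa2, the mitochondrial thiolase, at 174 per kb, Acaa1b, a peroxisomal thiolase, at 109, Etfb, a subunit of the electron transfer flavoprotein, at 99.7, Crot, the peroxisomal carnitine octanoyltransferase, at 62.7, and Etfa at 60.5. The lowest were Ppargc1a at 0.745 per kb, Acot2 at 0.852, Pdk4 at 0.857 and Abcd2 at 1.21. In Cre-free TAL, Acaa1b was highest at 251 per kb, followed by Acaa2 at 170, Crot at 120 and Cyp4a10 at 103, which had been at 26.0 in control liver. In CC TAL the leading members were Acaa1b at 268 per kb, Acaa2 at 183, Crot at 131, Cyp4a10 at 112 and Ehhadh at 110. Without a spread between mice, whether neighbours in these orders differ cannot be said.

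**Figure D1:**
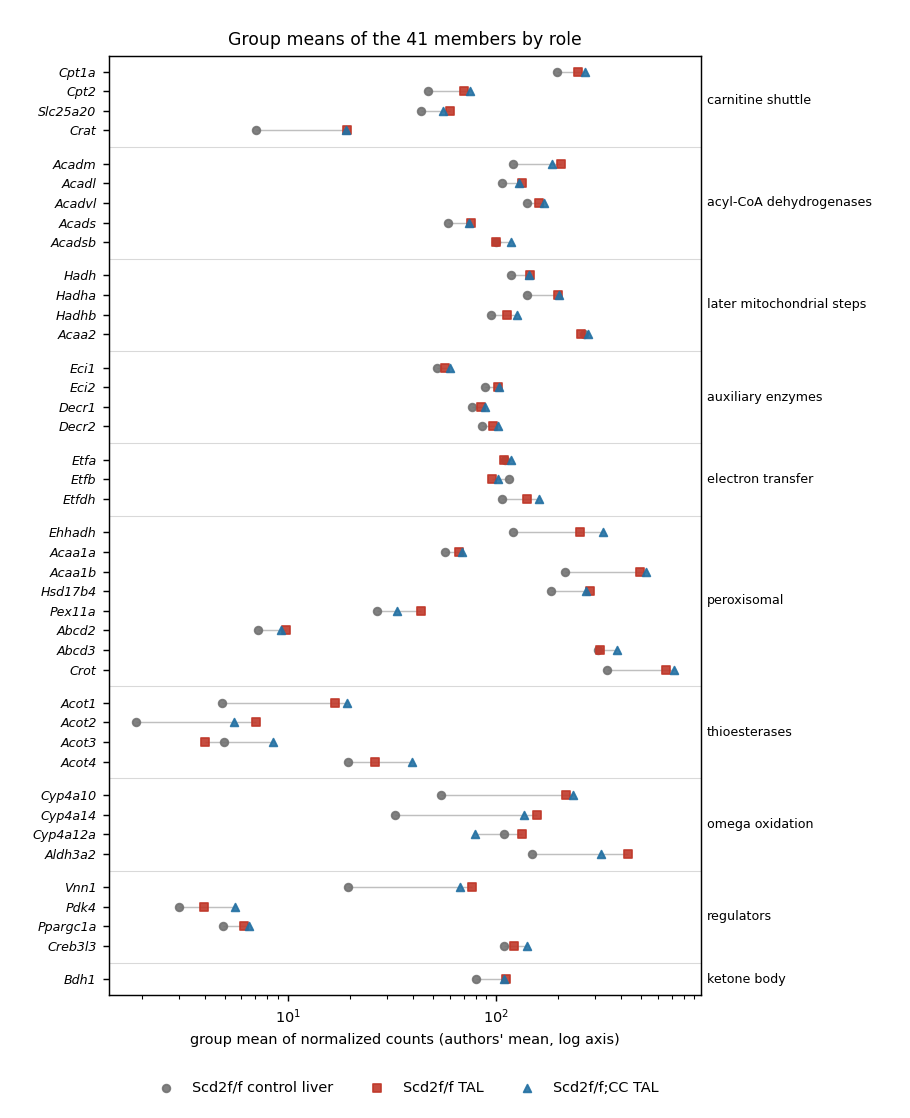
Group means of normalized counts of the 41 members on a log axis, ordered by role, with circles for Scd2f/f control liver, squares for Cre-free TAL (Scd2f/f TAL in the key) and triangles for CC TAL (Scd2f/f;CC TAL). The grey line spans the lowest and the highest of the 3 means, and it is widest in thioesterase and omega oxidation genes such as Cyp4a14, from 32.9 to 158.

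The comparison of Cre-free TAL with control liver asked how these genes stood after DEN and WAD. Of the 41 members, 13 (31.7%) were higher in Cre-free TAL by at least 1.5-fold, where 12.8% of all genes tested were, and 0 were lower, where 8.6% of all genes tested were. At 2-fold, 9 members (22%) were higher, against 6.4% of all genes tested. The median log2 ratio was 0.40 over the members and 0.03 over all genes tested. Most genes past the limit were of 3 roles. Among 16 members in peroxisomal oxidation, thioesterases and omega oxidation, 10 were higher with a median log2 ratio of 0.82, and among 20 members of the mitochondrial roles, auxiliary enzymes such as the peroxisomal Decr2 included, 2 were higher with a median of 0.28.

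The largest ratios belonged to omega oxidation. Cyp4a14, a microsomal hydroxylase of the terminal carbon of fatty acids, had a mean of 32.9 in control liver, 158 in Cre-free TAL and 137 in CC TAL. Cre-free TAL was 4.80-fold above control liver, and 0.806% of the genes tested had a higher ratio. Cyp4a10, a hydroxylase of the same family, stood at 54.8, 217 and 236 in the same order, 3.96-fold higher in Cre-free TAL. Both treated groups lay well above control liver for these genes, and close to each other. Aldh3a2, the fatty aldehyde dehydrogenase that oxidizes the aldehydes formed on this path, had means of 150 in control liver, 432 in Cre-free TAL and 319 in CC TAL, and the ratio of Cre-free TAL to control was 2.88. Cyp4a12a, a hydroxylase known to be higher in male than in female mice, did not share this pattern, with 110 in control liver, 133 in Cre-free TAL and 79.1 in CC TAL.

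**Figure D2:**
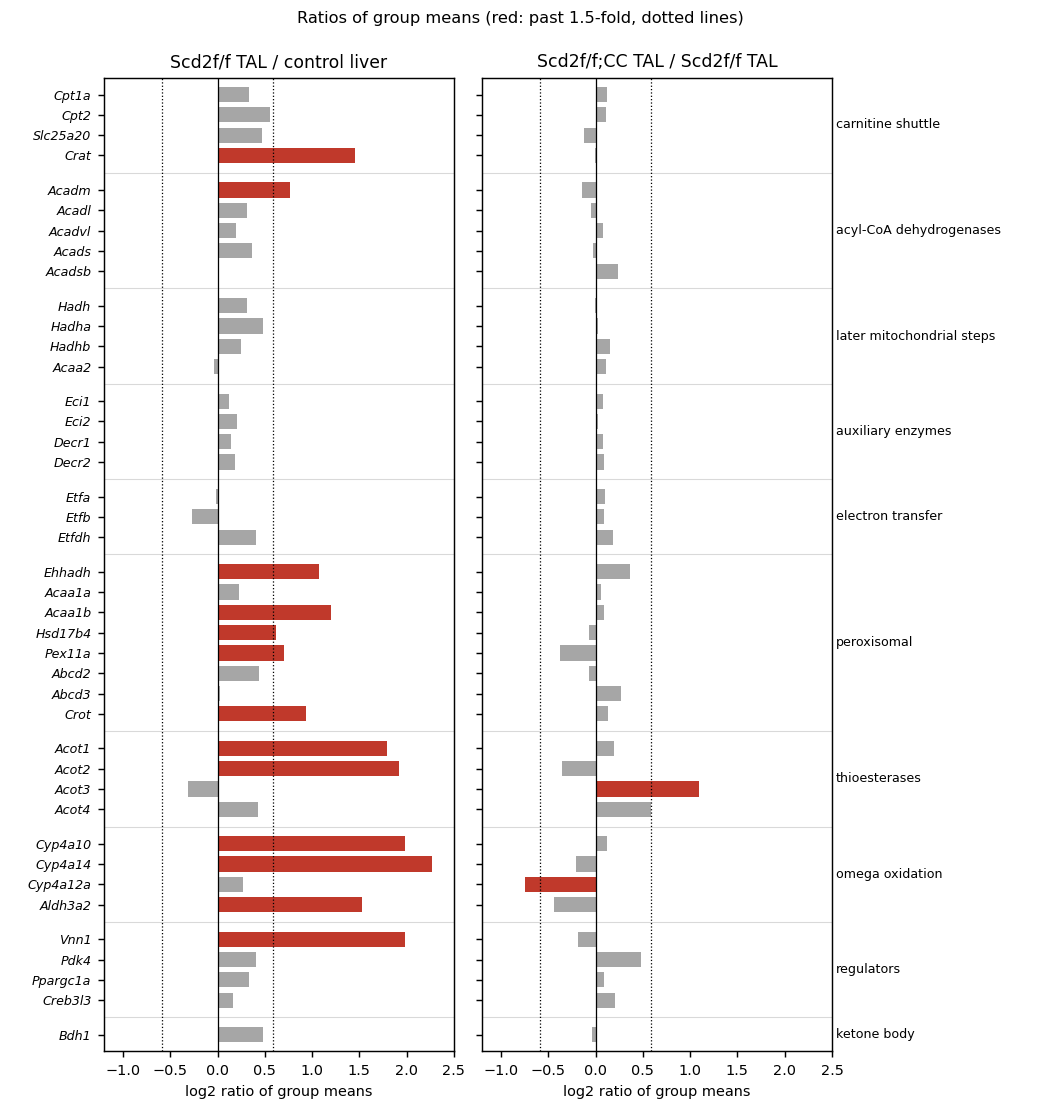
Log2 ratios of group means for each member, TAL to control liver (both Scd2f/f) on the left and CC TAL to Cre-free TAL on the right, with red bars past 1.5-fold (dotted lines). On the left 13 members are past the limit, all higher, and on the right these are Acot3, higher, and Cyp4a12a, lower.

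The thioesterases, which release free fatty acids from acyl-CoA, lie side by side on chromosome 12 and differed among themselves. Acot2, the mitochondrial form, had means of 1.87 in control liver, 7.08 in Cre-free TAL and 5.52 in CC TAL, a ratio of 3.79 between Cre-free TAL and control. Acot1, the cytosolic form, stood at 4.84, 16.8 and 19.3, a ratio of 3.47. Acot3 and Acot4 are peroxisomal forms, and neither was past the limit in Cre-free TAL. Acot3 had 4.96 in control liver and 3.99 in Cre-free TAL, a log2 ratio of -0.31, and Acot4 had 19.6 and 26.4, a log2 ratio of 0.43. On GRCm38 the table places Acot2 at chr12:83987861-83993874, Acot1 at chr12:84009490-84018372, Acot4 at chr12:84038379-84048602 and Acot3 at chr12:84052144-84060403, all on the plus strand.

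Counts of some of these genes are uncertain, because the estimation of counts can split reads between near-identical copies. The coding sequences of Acot1 and Acot2 were 95.6% identical, and 43.6% of the 50-base stretches of Acot1 were also found in Acot2. Acot3 shared 13.7% of its stretches with Acot1 and 9.70% with Acot4. Acaa1a and Acaa1b were 96.5% identical, with 37.9% of stretches shared. Cyp4a12a and Cyp4a12b were 98.5% identical, with 54.8% shared, and Cyp4a10 shared 34.6% of its stretches with Cyp4a32 and 19.6% with Cyp4a31. Cyp4a10 and Cyp4a14 shared 0 such stretches, so their ratios do not rest on the same ambiguous reads of that length. Without the 9 members of the Acot, Cyp4a and Acaa1 families, 8 of 32 members were higher in Cre-free TAL than in control liver. With them the count was 13 of 41, and 12.8% of all genes tested were higher.

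**Figure D3:**
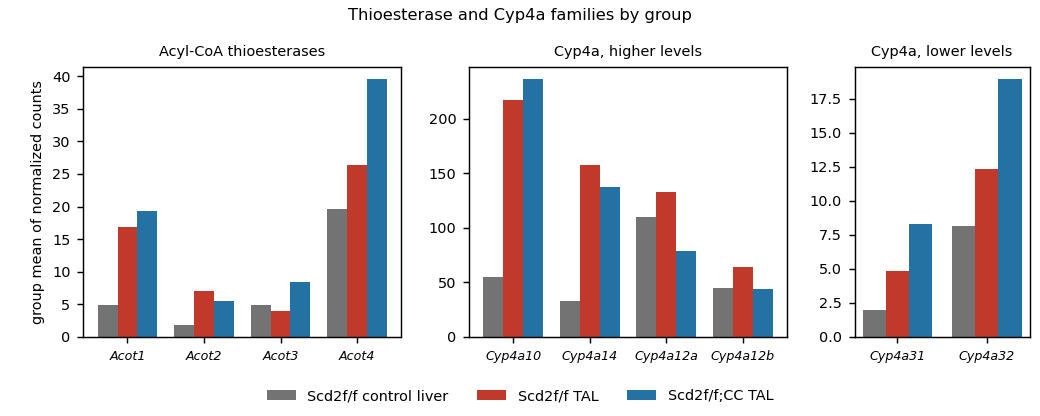
Group means of normalized counts, on linear axes from 0, of the 4 thioesterase members and of 6 Cyp4a genes, of which Cyp4a12b, Cyp4a31 and Cyp4a32 are not members. Acot1, Acot2, Cyp4a10 and Cyp4a14 were high in both treated groups, while Acot3 and Acot4 were highest in CC TAL (8.50 and 39.5) and Cyp4a12a was lowest there (79.1).

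Among the 8 peroxisomal members, 5 were higher in Cre-free TAL and the median log2 ratio was 0.66. Acaa1b had 214 in control liver, 492 in Cre-free TAL and 525 in CC TAL, a ratio of 2.30 in Cre-free TAL. Ehhadh, a bifunctional enzyme of the middle steps, had 121, 255 and 328, a ratio of 2.11. Crot, which converts shortened acyl groups to carnitine esters for export to mitochondria, had 342, 655 and 717, a ratio of 1.92. Both treated groups were above control liver in these genes, and of the 3 Ehhadh had the largest ratio of CC TAL to Cre-free TAL, 1.29. Pex11a, which acts in the division of peroxisomes, had 26.9 in control liver, 43.7 in Cre-free TAL and 33.7 in CC TAL. Hsd17b4, the other bifunctional enzyme of the peroxisome, had 185, 283 and 270, a ratio of 1.53 that lay just past the limit. The remaining peroxisomal members were within 1.5-fold. Abcd3, a transporter of the peroxisomal membrane, stood at 311 in control liver and 317 in Cre-free TAL, its relative Abcd2 at 7.21 and 9.79, and Acaa1a, the paralogue of Acaa1b, at 56.9 and 66.4.

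The carnitine shuttle had 1 of 4 members past the limit. Crat, carnitine acetyltransferase, stood at 7.01 in control liver, 19.2 in Cre-free TAL and 19.1 in CC TAL, a ratio of 2.74 in Cre-free TAL. Cpt1a, which forms the carnitine ester at the outer membrane and controls entry, had 197, 248 and 269. Slc25a20, the carrier across the inner membrane, had 43.9, 60.6 and 55.9. Cpt2, which restores acyl-CoA in the matrix, had 47.5, 70.0 and 75.6, a ratio of 1.47 in Cre-free TAL that lay just short of the limit. Each of the 4 genes had its lowest mean in control liver.

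The steps of the mitochondrial spiral differed less between groups. Acadm, the medium-chain acyl-CoA dehydrogenase, had 121 in control liver, 206 in Cre-free TAL and 187 in CC TAL, and its ratio of 1.70 was the only one past the limit among the 5 dehydrogenases. The long-chain Acadl stood at 107 and 133 in control liver and Cre-free TAL, the very-long-chain Acadvl at 141 and 161, and the short-chain Acads at 58.8 and 75.7. The branched-chain Acadsb had the same mean in both. Hadha and Hadhb, the subunits of the trifunctional protein, had log2 ratios of 0.48 and 0.25, Hadh of 0.31 and the thiolase Acaa2 of -0.03. Hadha and Hadhb code for partners in a complex, and their means were 142 and 95.1 in control liver and 198 and 113 in Cre-free TAL. Of the auxiliary enzymes for unsaturated chains, Eci1, Eci2, Decr1 and Decr2 had log2 ratios from 0.12 to 0.20, and 0 of 4 were past the limit. The electron transfer flavoprotein, which passes electrons from the dehydrogenases to the respiratory chain, had the lowest median of the roles, -0.01. Its subunit Etfb had 116 in control liver and 96.1 in Cre-free TAL, Etfa had 111 and 110, and Etfdh, the membrane enzyme that takes the electrons on, had 107 and 142.

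Among the 4 regulators and PPARα-responsive genes, Vnn1, a pantetheinase that degrades a product of coenzyme A breakdown, was past the limit with 19.4 in control liver, 76.7 in Cre-free TAL and 67.5 in CC TAL, a ratio of 3.95 in Cre-free TAL. Pdk4, a kinase that turns off pyruvate dehydrogenase in fasting, had 3.01, 3.98 and 5.56. Ppargc1a, a coactivator of mitochondrial genes, had 4.91, 6.17 and 6.55, and Creb3l3, a membrane-bound transcription factor of fasting, had 109, 122 and 141. Bdh1, which interconverts acetoacetate and hydroxybutyrate, had 80.4, 112 and 109. In each of these 5 genes control liver had the lowest mean, and Vnn1 alone was past the limit in Cre-free TAL.

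**Figure D4:**
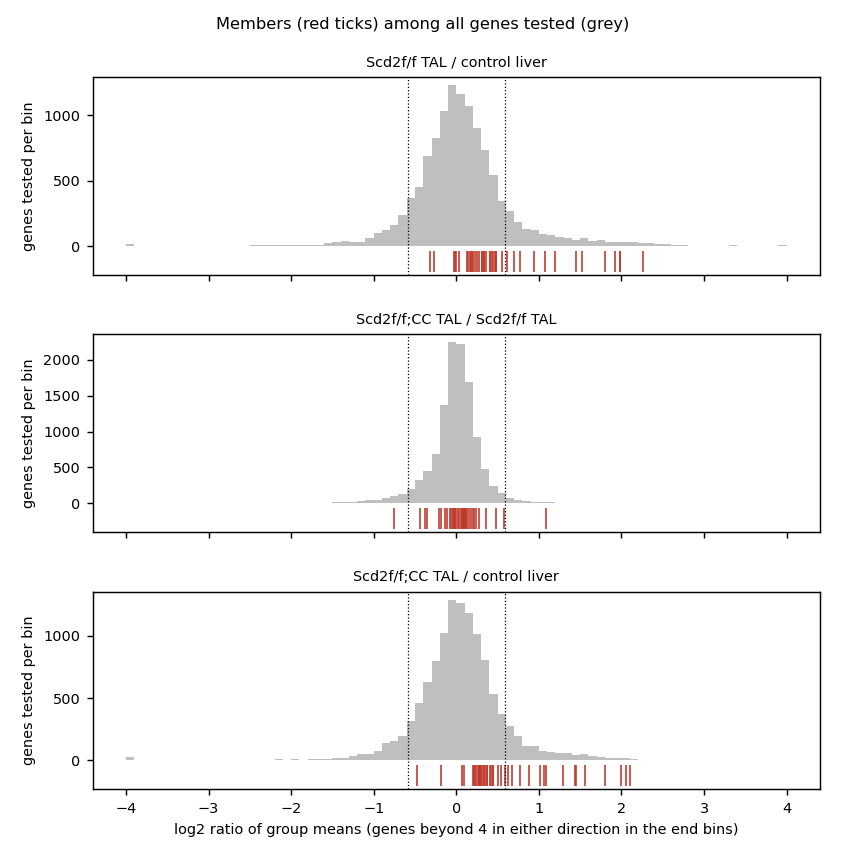
Number of genes tested per bin of log2 ratio of group means (grey, vertical axis) for each of the 3 comparisons, with the 41 members as red ticks below and dotted lines at 1.5-fold. Against control liver the ticks lie to the right, with a median of 0.40 in Cre-free TAL and 0.42 in CC TAL, and between the treated groups they lie near 0, with a median of 0.08.

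Comparison of CC TAL with Cre-free TAL asked whether these genes differed when Scd2 was deleted in Col1a1-expressing cells of treated mice. Most members were close. Of the 41, 1 (2.44%) was higher by at least 1.5-fold, where 2.35% of all genes tested were, and 1 (2.44%) was lower, where 4.9% of all genes tested were. The shares of members were near or below those of all genes. The median log2 ratio was 0.08 over the members and 0.01 over all genes tested. Acot3 was higher, at 8.50 against 3.99, a ratio of 2.13 that 0.492% of the genes tested exceeded. Its neighbour Acot4 lay just under the limit, at 39.5 against 26.4, a ratio of 1.496. Acot1 and Acot2, the pair that was high in Cre-free TAL, had log2 ratios of 0.20 and -0.36 here. Cyp4a12a was the member lower in CC TAL, at 79.1 against 133, 1.68-fold lower. Its near-copy Cyp4a12b, not a member, stood at 44.0 against 64.2. Other members with some distance from 0 were Aldh3a2, with a log2 ratio of -0.44, Pex11a with -0.37, Pdk4 with 0.48 and Ehhadh with 0.36. The 20 members of the mitochondrial roles had 0 past the limit, with log2 ratios from -0.14 in Acadm to 0.24 in Acadsb.

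Against the same control livers, CC TAL had 16 of 41 members (39%) higher, where 10.9% of all genes tested were, and 0 lower, where 7.71% of all genes tested were. At 2-fold, 11 members (26.8%) were higher, against 4.51% of all genes tested. The 2 treated groups share the control group and the 3 ratios of a gene are not independent, so the counts are given side by side. Cpt2 (1.59-fold), Etfdh (a log2 ratio of 0.59), Acot3 (1.71-fold), Acot4 (2.02-fold) and Pdk4 (1.85-fold) were past the limit in CC TAL and not in Cre-free TAL. The reverse held for Hsd17b4 (1.46-fold) and Pex11a (1.25-fold). Except for Acot3, the 2 treated groups differed from each other by less than 1.5-fold in each of these genes. The largest ratios to control liver were 4.31 in Cyp4a10, 4.16 in Cyp4a14, 3.99 in Acot1 and 3.48 in Vnn1.

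Other genes of the pathway were taken from a list of 71, of which 69 were in the table and 66 were tested. In Cre-free TAL against control liver, 14 of the 66 were higher and 5 lower, with a median log2 ratio of 0.18, where 12.8% of all genes tested were higher and 8.6% lower. In CC TAL against Cre-free TAL, 2 were higher and 5 lower, with a median of 0.10, where 2.35% and 4.9% of all genes tested were. Against control liver, CC TAL had 20 higher and 6 lower, with a median of 0.28, where 10.9% and 7.71% of all genes tested were. Acat1, a mitochondrial thiolase that acts on acetoacetyl-CoA, had 183 in control liver, 216 in Cre-free TAL and 237 in CC TAL, and was within 1.5-fold. Bdh2, a cytosolic dehydrogenase, was lower, at 5.16, 2.37 and 3.41.

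Among the 66 tested genes of the wider list, each with a mean of at least 1, the highest ratios in Cre-free TAL belonged to Fgf21, a hormone that hepatocytes secrete in fasting, and Cd36, a fatty acid transporter. Fgf21 had 0.167 in control liver, 4.19 in Cre-free TAL and 1.53 in CC TAL. Cd36 had 23.7, 138 and 88.5, 5.82-fold higher in Cre-free TAL than in control liver. Cyp4a31 had 1.99, 4.83 and 8.32, with the uncertainty given above for its reads, and Acot9, a mitochondrial thioesterase, had 1.64, 3.79 and 2.46. Lpin1, a phosphatidate phosphatase and coactivator, was lower, at 184, 48.1 and 18.3, and was again 2.63-fold lower in CC TAL than in Cre-free TAL. Acsl4, which activates polyunsaturated fatty acids to acyl-CoA, had 198, 62.2 and 64.5, and its relative Acsl3 had 16.0, 8.56 and 9.33. Nudt7, a peroxisomal hydrolase of coenzyme A, had 441, 248 and 325. The wider list thus held genes on both sides of control liver. The receptor gene itself, Ppara, stood at 79.0, 80.7 and 104. Cyp4a32 was higher in CC TAL than in Cre-free TAL, at 18.9 against 12.3. Oxct1, listed under ketone use, was lowest in CC TAL, with 3.65 in control liver, 3.95 in Cre-free TAL and 2.19 in CC TAL. Acacb, listed under malonyl-CoA control, had 39.5, 27.0 and 24.9 in the same order.

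Markers of other cells and of liver state differed between the same groups. Over all genes tested, 12.8% were higher and 8.6% lower in Cre-free TAL than in control liver by at least 1.5-fold. All 7 macrophage markers were higher in Cre-free TAL than in control liver, and their summed means were 80.3 in control liver, 306 in Cre-free TAL and 272 in CC TAL. None of them was at 0, and Marco, the lowest in control liver, had 0.870, 14.6 and 10.7. Of 11 clock genes tested, 3 were higher and 6 lower in Cre-free TAL, among them Arntl at 0.471 in control liver, 2.17 in Cre-free TAL and 3.17 in CC TAL, Ciart at 5.57, 0.874 and 0.928, and Per2 at 16.3, 5.70 and 6.65. Nr1d1, a clock gene that is also in the wider list, had 18.9, 43.1 and 43.9. Of 10 genes that follow fasting or feeding, 3 were higher and 4 lower in Cre-free TAL, with Fasn at 243, 150 and 116 and Insig2 at 40.8, 124 and 126. The part of cell makeup, time of day and feeding in the higher member means was not tested. The 10 hepatocyte markers had summed means of 37735 in control liver, 33175 in Cre-free TAL and 35898 in CC TAL, with a median log2 ratio of -0.21 in Cre-free TAL against control liver. Of the 10, 0 were higher and 3 lower in Cre-free TAL. These were Tat at 499, 181 and 305, Apoa1 at 4730, 2890 and 3680, and Cyp3a11 at 3990, 2580 and 1830.

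Between the treated groups, some marker lists stood apart and others differed little. Over all genes tested, 2.35% were higher and 4.9% lower in CC TAL than in Cre-free TAL by at least 1.5-fold. Stellate cell and fibroblast markers summed to 225 in control liver, 363 in Cre-free TAL and 221 in CC TAL, and 6 of 9 tested were lower in CC TAL, with Col1a1 at 19.6 in Cre-free TAL and 4.51 in CC TAL. Cholangiocyte markers summed to 58.7, 53.1 and 19.1 in the order of control liver, Cre-free TAL and CC TAL. Most of each sum was Spp1, at 52.3, 45.1 and 14.8 in that order. Of 6 markers listed, 3 were tested, and the rest were below the minimum mean or absent. Of the 3, 2 were lower in CC TAL than in Cre-free TAL, Spp1 and Epcam. Sox9 was within 1.5-fold there, at 5.03 in Cre-free TAL and 3.52 in CC TAL. It was 1.68-fold higher in Cre-free TAL than in control liver. Of 3 red blood cell markers tested, 2 were higher in CC TAL than in Cre-free TAL. These were Hbb-bs at 98.8 against 46.2 and Hba-a1 at 27.5 against 15.1. Of 7 macrophage markers, 1 was lower and 0 higher in CC TAL than in Cre-free TAL, and the same counts held for 6 endothelial markers. Of the genes of fasting or feeding, 4 of 10 were higher and 1 lower in CC TAL than in Cre-free TAL, among them G6pc at 136 against 54.2 and Igfbp1 at 43.3 against 22.6. Their part in the values of Acot3 and Cyp4a12a was not tested.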

How the data were processed

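Polyadenylated RNA was prepared by the authors with a TruSeq v2 kit and sequenced on a NextSeq instrument. The submitters' processing notes name STAR 2.6.1, Partek 6 and mm10. The authors estimated counts per gene by expectation maximization on Gencode M3, scaled them to the upper quartile and compared groups with Partek Gene Specific Analysis. Any expression minimum is not given in the sources used here. The deposited table holds 18 columns. For each group it gives a signal, the least-squares mean that the authors obtained from upper-quartile normalized counts, written to 3 significant digits. It also holds p-values, false discovery rates, ratios and fold changes of 2 comparisons by the authors, which were not used. The means of 3 groups were mapped to the groups of the labels. The study's methods for RNA sequencing call the tissue NTL and its results TAL.

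Ratios of group means were computed without a pseudocount, with a minimum mean of 1 over the 3 groups and a limit of 1.5-fold. No test was possible on group means. Upper-quartile scaling sets the 75th percentile of each group near 15.5, so a ratio is relative to the other genes. Coordinates were checked against GENCODE M21 on GRCm38, where 99.975% of 16171 genes matched by name overlapped the gene of that name, all 41 members among them. Exon lengths came from the same annotation. Promoter windows were taken from RefSeq. Members and lists were chosen with earlier results of these data known. The text names every member, of the wider list up to 5 genes with the largest ratio in each direction and comparison, Scd2, and genes of the marker and state lists with high means or ratios past 2-fold. Other genes, such as Acat1, Ppara and Cyp4a12b, were named after their values were seen. Some items are not reported here. The steps were tested on simulated data. Software was Python 3.11.15 with NumPy 2.4.6, pandas 2.3.3, Biopython 1.88 and Matplotlib 3.10.9.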

Additional observations from a re-analysis of the deposited data

How the results depend on the processing

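With a minimum mean of 10, no minimum, a pseudocount of 1 or centring on the median of all genes tested, counts of members higher or lower stayed within 1.5 times of those reported and no called member turned its direction, except that with a minimum mean of 10 members higher in CC TAL than in Cre-free TAL numbered 0, since Acot3 was no longer counted. At a limit of 2-fold, 0 members were lower in CC TAL than in Cre-free TAL. Centring on the hepatocyte markers raised the members higher in Cre-free TAL than in control liver to 21 and their median log2 ratio to 0.61, since the median of these markers was -0.21. It moved the median of CC TAL against Cre-free TAL to -0.062. The members then added in Cre-free TAL were Hadha, Cpt2, Bdh1, Slc25a20, Abcd2, Etfdh, Acot4 and Pdk4. In CC TAL against control liver, the calls of Acadm and Etfdh were lost when centred on all genes, and Hsd17b4 was gained when centred on the hepatocyte markers. An alternative chosen after seeing the data left out the Acot, Cyp4a and Acaa1 families, with 32 members remaining. Then 8 members were higher in Cre-free TAL and 9 in CC TAL against control liver, where 12.8% and 10.9% of all genes tested were. In CC TAL against Cre-free TAL, 0 were higher and 0 lower, where 2.35% and 4.9% of all genes tested were.

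No paired analysis was possible because the columns carry group means and no replicate numbers, and leaving out each replicate was not run for the same reason. The 3 significant digits of the deposited means and the unknown depth limit the precision of ratios close to 1.5-fold.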

Other observations

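The 76 subunits of oxidative phosphorylation, picked by gene name after values had been seen, were mostly below control liver. In Cre-free TAL against control liver, 0 were higher and 10 lower by at least 1.5-fold, where 12.8% of all genes tested were higher and 8.6% lower. Their median log2 ratio was -0.27, and 65 of 76 had a lower mean. Between CC TAL and Cre-free TAL their median was 0.06, with 0 past the limit. Pex11a stood apart from the other genes of peroxisome assembly and division: 0 of 15 other Pex genes were past the limit in any of the 3 comparisons. Pex5, the import receptor, had 41.1 in control liver, 49.7 in Cre-free TAL and 55.7 in CC TAL.

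Genes known to be higher in livers of male mice, were also picked after values had been seen. Cyp4a12b followed its near-copy Cyp4a12a, with log2 ratios of 0.53 in Cre-free TAL against control liver and -0.55 in CC TAL against Cre-free TAL. Of 14 such genes other than Cyp4a12a and Cyp4a12b, 9 were lower and 1 higher by at least 1.5-fold in Cre-free TAL than in control liver. Over all genes tested, 8.6% were lower and 12.8% higher in that comparison. In CC TAL against Cre-free TAL, 6 of the 14 were higher and 0 lower by this limit, where 2.35% and 4.9% of all genes tested were. Mup20, at 7340 in Cre-free TAL and 5500 in CC TAL, and C6, at 187 and 167, had lower means in CC TAL. Hsd3b5, a steroid dehydrogenase, had 128 in control liver, 29.0 in Cre-free TAL and 85.8 in CC TAL. Elovl3, a fatty acid elongase, had 13.7, 34.3 and 73.2. Of Cyp2a4 and Cyp2b9, which are known to be higher in female mice, Cyp2a4 had 0.348, 32.6 and 12.6, and Cyp2b9 had 0.135, 6.08 and 31.1.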
